A study of Mus musculus with 21 samples.

Results

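Aminoacyl-tRNA synthetases are the enzymes that load each tRNA with its amino acid, and their genes were followed here in Paneth cells, the defensin-secreting cells at the base of the crypts of the small intestine. The members were the rows of the deposited count table for 35 listed genes, matched by Ensembl identifier and symbol, out of 55414 genes in the table. They comprised 19 genes for cytosolic enzymes and 16 for mitochondrial enzymes, and all 35 passed the filter on low counts, which kept 13070 genes.

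Cells carry separate synthetases for protein synthesis in the cytosol and in mitochondria, and all of them are encoded in the nucleus. Gars1 and Kars1 are exceptions in that a single gene supplies both compartments. Several cytosolic enzymes sit together in the multisynthetase complex, which is held by the scaffold proteins Aimp1, Aimp2 and Eef1e1. Many cytosolic synthetase genes are known targets of Atf4, the transcription factor of the amino acid response, which binds C/EBP-ATF composite elements near their start sites. Paneth cells fill their granules with secreted protein and so depend heavily on translation.

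Paneth cells were collected by FACS from mouse small intestine, and stranded mRNA libraries were sequenced in bulk. The study's methods name the strain as C57BL/6J and the samples as taken from individual mice, while age and the sex of each mouse were not given in the sources used here. All mice drank either Milli-Q (purified) water or water with ZnSO4, labelled as 200 mM, over 7 weeks. The 6 groups were SPF (specific pathogen free) mice on Milli-Q water (3 libraries) and on zinc water (3 libraries), SPF mice that also received broad-spectrum antibiotics for the final 3 weeks on Milli-Q water (4 libraries) and on zinc water (4 libraries), and germ-free mice on Milli-Q water (3 libraries) and on zinc water (4 libraries). No germ-free group received antibiotics. Libraries are numbered by their replicate labels, and p-values measure the spread between these libraries.

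Total counts per library ranged from 9888174 to 16896714. The 10 Paneth cell markers checked, including Lyz1, Mmp7 and 4 Defa genes, held between 30.4 and 54.0% of the counts of a library. The marker lists of enterocytes (11 genes), goblet cells (8) and enteroendocrine cells (8) held at most 0.173, 1.57 and 0.408% of counts in any library. The lists of stem and cycling cells (10) and tuft cells (7) held at most 0.619 and 0.0474%, and those of immune cells (10) and stromal cells (8) at most 0.0017 and 0.0004%. SPF zinc library 1 held 6228 counts of Xist, which is transcribed in females, against at most 34 in every other library. On the first principal component the extreme value, 79.4, was that of germ-free zinc library 1. The zinc-binding protein gene Mt1 rose on zinc water in all 3 contexts (log2 fold changes 2.97 to 4.00), and the microbe-induced lectin gene Reg3g fell in antibiotics and germ-free mice on both waters (log2 fold changes -4.53 to -1.34). Both thus went with the labels. In bulk samples, fewer cells of a type and less RNA per cell cannot be told apart.

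Levels between genes were compared as TPM, counts scaled by the length of the longest transcript of each gene, averaged over the 6 group means. Cytosolic synthetase genes had a median of 14.8 TPM and ranged from 5.14 TPM for Cars1, which charges cysteine tRNA, to 50.3 TPM for Wars1, the tryptophan enzyme. The next highest were Nars1 (asparagine) at 35.4, Kars1 (lysine) at 33.9 and Vars1 (valine) at 32.3 TPM. Mitochondrial synthetase genes without Lars2 had a median of 3.18 TPM, from 1.33 TPM for Nars2 to 9.66 TPM for Iars2, the mitochondrial isoleucine enzyme. Of these 15 genes, Iars2, Tars2, Vars2, Hars2 and Fars2 lay above Cars1, the lowest cytosolic gene by TPM. This order depended on the length scaling. In CPM (counts scaled to library size and not to length) only Iars2 (52.5) lay above Cars1 (37.3). The lowest cytosolic gene in CPM was Farsa (28.7), below Iars2 and Tars2 (32.5). Lars2, the mitochondrial leucine enzyme, stood at 332 TPM and is taken up separately below. The lowest count of any cytosolic gene in a library was 79, and that of any mitochondrial gene was 12, for Pars2.

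**Figure D1:**
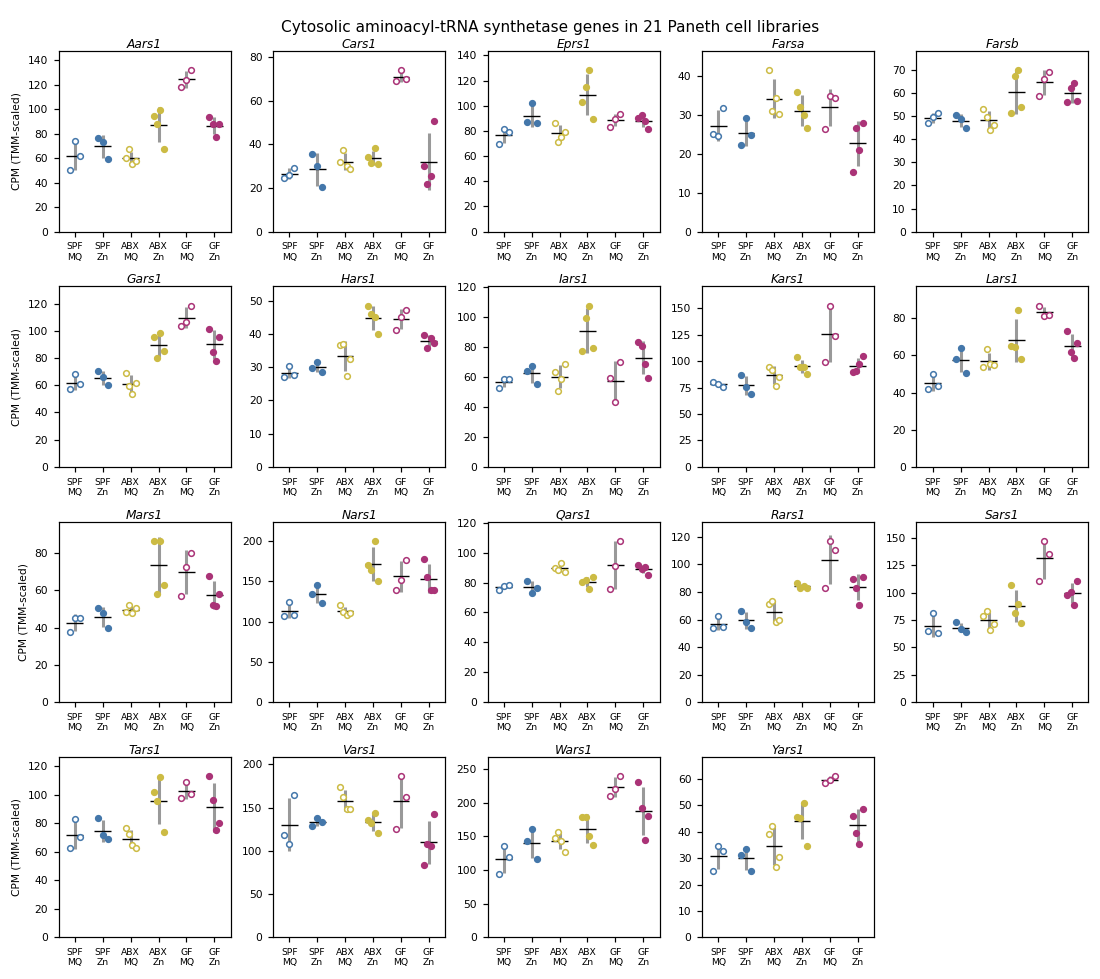
Levels of the 19 cytosolic synthetase genes in CPM (counts scaled to a common library size with TMM factors, linear axis from 0), with 1 point per library, open for Milli-Q (MQ) and filled for zinc (Zn) water, a black line at the group mean and a grey bar for ± SD. Cars1 stood between 69.2 and 73.9 CPM in the 3 germ-free Milli-Q libraries and at or below 50.9 CPM in the other 18.

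Over whole libraries the cytosolic genes summed to 1222 ± 94.1 CPM (SD, n = 3) in SPF mice on Milli-Q water and 1318 ± 102 CPM (SD, n = 3) on zinc water. After antibiotics the sums were 1350 ± 83.4 and 1642 ± 150 CPM (SD, n = 4 each) in the same order. In germ-free mice they were 1897 ± 169 CPM (SD, n = 3) on Milli-Q water and 1564 ± 107 CPM (SD, n = 4) on zinc water. The germ-free Milli-Q libraries (1703 to 2015 CPM) did not overlap the SPF Milli-Q libraries (1115 to 1293 CPM). The 15 mitochondrial genes without Lars2 summed to 286 ± 12.9 and 253 ± 12.6 CPM in SPF mice (SD, n = 3 each), 299 ± 14.2 and 307 ± 4.62 CPM after antibiotics (SD, n = 4 each), and 253 ± 22.0 (SD, n = 3) and 243 ± 25.7 CPM (SD, n = 4) in germ-free mice, on Milli-Q and zinc water respectively. These sums are descriptions and were not tested. The comparisons that follow share groups (each Milli-Q or zinc group enters several), so they are not independent of each other.

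In TMM-scaled CPM, though not as a share of counts (given below), the germ-free state on Milli-Q water went with the highest cytosolic levels. Against SPF mice on the same water, 14 of 19 cytosolic synthetase genes rose and none fell, where 12.7% of all genes tested were called higher in edgeR's quasi-likelihood test at an adjusted p of 0.05. All 19 log2 fold changes were above 0, with a median of 0.68 beside -0.03 for all genes tested. The 5 genes not called were Eprs1, Farsa, Iars1, Qars1 and Vars1, with log2 fold changes from 0.02 to 0.28. In 15 of the 19 genes every germ-free library lay above every SPF library, which held for 19.3% of all genes.

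Cars1 had the largest change. It was measured at 24.4, 26.2 and 29.2 CPM in the SPF Milli-Q libraries and at 69.2, 73.9 and 69.9 CPM in the germ-free Milli-Q libraries (log2 fold change 1.42 ± 0.22 SE, adjusted p 0.000144 in edgeR's quasi-likelihood test). The groups were far apart and each was tight. Aars1, the alanine enzyme, was measured at 50.4, 73.9 and 61.7 CPM in SPF mice and at 118, 124 and 132 CPM in germ-free mice (log2 fold change 1.01 ± 0.15 SE, adjusted p 0.000119 in that test). Yars1, which charges tyrosine, was measured at 25.1, 34.5 and 32.5 CPM against 58.3, 59.7 and 61.0 CPM (log2 fold change 0.96 ± 0.18 SE, adjusted p 0.000616 in edgeR). Wars1 was measured at 94.9, 136 and 120 CPM against 210, 221 and 240 CPM (log2 fold change 0.93 ± 0.17 SE, adjusted p 0.000472 in edgeR). In each of these genes the lowest germ-free library lay above the highest SPF library.

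Both genes whose products serve the cytosol and mitochondria rose as well. Gars1, for glycine, changed by 0.82 ± 0.13 (SE, adjusted p 0.000172 by edgeR), with means of 61.9 ± 5.63 and 109.5 ± 7.84 CPM (SD, n = 3 each). Kars1 changed by 0.68 ± 0.14 (SE, adjusted p 0.00136 by edgeR), with means of 78.0 ± 2.51 and 125 ± 26.5 CPM (SD, n = 3 each). Of the 7 synthetases of the multisynthetase complex, Kars1, Lars1, Mars1 and Rars1 rose, and Eprs1, Iars1 and Qars1 were not called. The scaffold genes Aimp1, Aimp2 and Eef1e1 were called in neither direction, with a median log2 fold change of 0.09.

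The other called genes were Farsb, Hars1, Lars1, Mars1, Nars1, Rars1, Sars1 and Tars1, with log2 fold changes from 0.39 to 0.92. The calls of Aars1, Cars1, Gars1, Hars1, Kars1, Lars1, Mars1, Rars1, Sars1, Wars1 and Yars1 held without any single library. The call of Farsb was lost without germ-free Milli-Q library 2 or 3 or any of the 3 SPF Milli-Q libraries (adjusted p up to 0.117 in edgeR). That of Nars1 was lost without germ-free Milli-Q library 3 or SPF Milli-Q library 1 or 3 (adjusted p up to 0.0930), and that of Tars1 without germ-free Milli-Q library 2 or 3 or SPF Milli-Q library 1 or 3 (adjusted p up to 0.126). Hars1 and Hars2 overlap on opposite strands, Mars1 lies opposite Ddit3, and Aars1 shares its strand with the overlapping gene Exosc6. Other called genes, among them Cars1, Farsb, Kars1, Wars1 and Yars1, overlap annotated genes as well. Counts of all these genes are uncertain where the counting did not separate them.

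The direction rested on the scaling. Germ-free libraries on Milli-Q water gave 43.8 ± 0.845% of their counts to Defa genes (SD, n = 3), against 29.6 ± 4.90% in SPF mice (SD, n = 3), and 8 of 10 Paneth markers were called higher with 1 lower, while the stem and cycling list had 1 higher and 4 lower of 10. The enteroendocrine list had 2 higher and 5 lower of 8 (median -2.03), the goblet list 2 higher and 2 lower of 8, the tuft list 2 lower of 5 and the enterocyte list 1 lower of 11. Scaled by library totals alone, all genes had a median log2 fold change of -0.99 and the cytosolic genes one of -0.28, so the cytosolic genes again lay above the median of all genes but no longer above 0. In that scaling the count was 8 of 19, all lower, and Cars1 and Aars1 were not called. Of the genes called higher with TMM factors, 3 (Farsb, Nars1 and Tars1) were called lower with library totals. As a share of all counts, the cytosolic genes held 0.123 ± 0.0114% in the germ-free Milli-Q group (SD, n = 3) and 0.154 ± 0.0279% in SPF mice (SD, n = 3). By mean share the germ-free groups were the lowest of all, with 0.1105% on zinc water. The antibiotics zinc group was the highest, at 0.195%. The part of the Defa share and of the marker lists in the result was not tested.

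**Figure D2:**
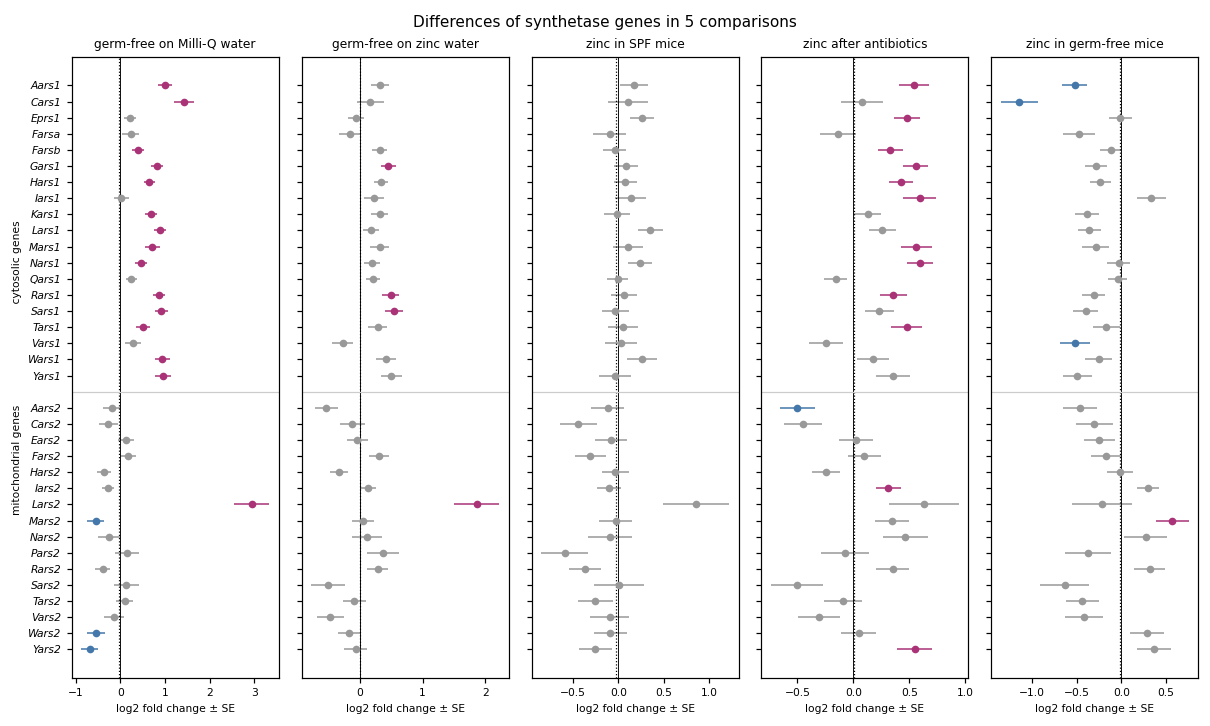
Log2 fold change ± SE of the 35 synthetase genes in 5 comparisons (edgeR, TMM scaling), with genes past an adjusted p of 0.05 in red where higher and in blue where lower, and a dotted line at the median of all genes tested. In the leftmost panel all 19 cytosolic genes lie to the right of 0, and Lars2 lies at 2.94.

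Start-site windows of these genes were read in the GRCm39 genome, from 250 bases before to 50 bases after the start of the Ensembl canonical transcript of each gene, for the C/EBP-ATF composite element TGATGNAA on either strand (reverse complement TTNCATCA). It was found in 5 of 19 cytosolic windows (26.3%) and in 0 of 16 mitochondrial windows. Among all protein-coding genes 3.84% of 21757 windows held it, and among protein-coding genes tested 2.35% of 11965 did. The cytosolic genes with the element were Aars1, Cars1, Gars1, Iars1 and Tars1. Of these, Aars1, Cars1, Gars1 and Tars1 were called higher in germ-free mice on Milli-Q water, and Iars1 was not (log2 fold change 0.02 ± 0.17 SE). Most cytosolic genes without the element were called higher there too, since 14 of 19 were called in all. In Cars1, Gars1 and Iars1 the element began 28, 13 and 38 bases into the transcript. In Aars1 and Tars1 it lay before this start but inside the gene as bounded by its outermost transcripts (Aars1 chr8:111754391-111784296, Tars1 chr15:11382387-11399775), and the copy nearest the start is printed for each because both genes were called. They are written in the direction of transcription with the element in capitals, at chr8:111760472-111760501 (plus strand) and chr15:11399752-11399781 (minus strand).
Aars1, 25 bases before the start: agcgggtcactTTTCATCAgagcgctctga
Tars1, 8 bases before the start: tagggcggggccaggagtcccgTTGCATCA
A match to these letters is a description of the sequence and no evidence that a factor binds there.

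The list of Atf4 and amino acid response genes, tested in the same comparison, had 11 genes higher and 1 lower of 19 tested. Atf4 itself was measured at 203, 174 and 188 CPM in the SPF Milli-Q libraries and at 360, 386 and 353 CPM in the germ-free Milli-Q libraries (log2 fold change 0.96 ± 0.16 SE, adjusted p 0.000282 in edgeR's quasi-likelihood test). Among its known targets, Chac1, which degrades glutathione, rose on the log2 scale by 3.24 ± 0.66 (SE, adjusted p 0.00138 by edgeR), Trib3, a pseudokinase, by 2.67 ± 0.48 (SE, adjusted p 0.000463) and Nupr1, a stress-induced chromatin protein, by 2.01 ± 0.24 (SE, adjusted p 9.95e-06). Asns, asparagine synthetase, and Mthfd2, of mitochondrial folate metabolism, were also among the genes called higher. Stc2, a secreted glycoprotein, had a log2 fold change of -5.002 ± 1.32 (SE, adjusted p 0.00848 by edgeR). The summed level of the list was 794 ± 33.2 CPM in SPF mice and 2025 ± 95.6 CPM in germ-free mice on Milli-Q water (SD, n = 3 each). This list and the synthetase list were chosen with results of these libraries known. The cytosolic elongation factors together bring charged tRNA to the ribosome and move it along. Of 5 genes for them or their subunits, Eef1d (0.85 ± 0.18), Eef1g (0.55 ± 0.13) and Eef2 (0.45 ± 0.14, SE) rose and Eef1a1 and Eef1b2 were not called.

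The mitochondrial synthetase genes did not share this pattern of signs. In germ-free mice on Milli-Q water 3 of 16 fell and 1, Lars2, rose, where 11.6% of all genes were called lower. Without Lars2 the median log2 fold change was -0.25, and 10 of 15 values were below 0. Yars2, the mitochondrial tyrosine enzyme, was measured at 16.2, 13.3 and 16.9 CPM in the SPF Milli-Q libraries and at 9.46, 10.95 and 8.46 CPM in the germ-free Milli-Q libraries (log2 fold change -0.69 ± 0.19 SE, adjusted p 0.0122 in edgeR's quasi-likelihood test). The groups did not overlap, although Yars2 was no longer called without germ-free Milli-Q library 3 (adjusted p 0.0633 in edgeR). Mars2, for methionine, changed by -0.55 ± 0.19 (SE, adjusted p 0.0392 in edgeR) and Wars2, for tryptophan, by -0.55 ± 0.19 (SE, adjusted p 0.0412 in edgeR). The Mars2 call was lost without germ-free Milli-Q library 2 or 3 or SPF Milli-Q library 3 (adjusted p up to 0.167), and the Wars2 call without any one of the 6 libraries (adjusted p up to 0.152). The 5 genes Hars2, Iars2, Mars2, Wars2 and Yars2 lay below SPF mice without overlap, beside 18.8% of all genes. The count of 4 called mitochondrial genes became 2 without germ-free Milli-Q library 2 or SPF Milli-Q library 3, and 1 without germ-free Milli-Q library 3. Of 13 mitochondrial translation factors and amidotransferase genes, Mtif2, an initiation factor, changed by -0.88 ± 0.17 (SE, adjusted p 0.000908 in edgeR) and Gfm2, which recycles ribosomes, by -0.37 ± 0.13 (SE, adjusted p 0.0441). With library totals 15 of 16 mitochondrial genes were called lower and Lars2 higher, around the median of all genes of -0.99.

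**Figure D3:**
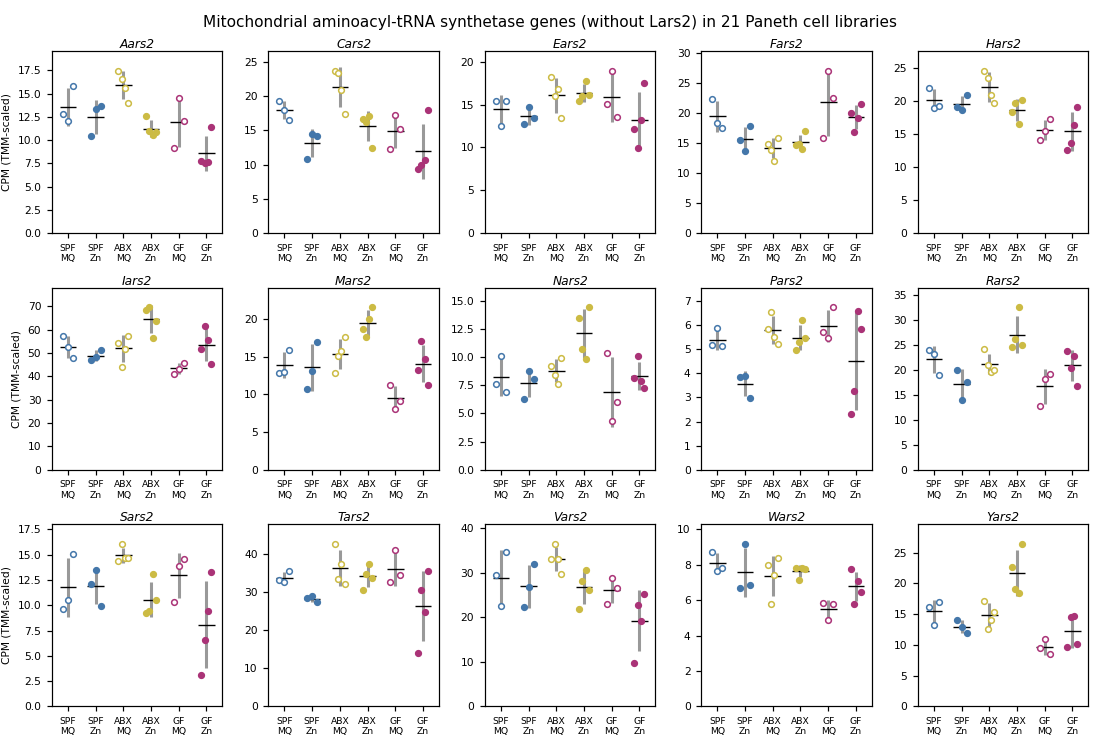
Levels of the 15 mitochondrial synthetase genes other than Lars2 in CPM (TMM-scaled, linear axis from 0), with 1 point per library, open for Milli-Q (MQ) and filled for zinc (Zn) water, a black line at the group mean and a grey bar for ± SD. By group means Yars2 was lowest in the germ-free Milli-Q libraries (8.46 to 10.95 CPM) and highest in the antibiotics zinc libraries (18.4 to 26.4 CPM).

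Lars2 stood apart from every other member. It was measured at 903, 1013 and 662 CPM in the SPF Milli-Q libraries and at 5960, 8473 and 5355 CPM in the germ-free Milli-Q libraries (log2 fold change 2.94 ± 0.39 SE, adjusted p 2.48e-05 in edgeR's quasi-likelihood test). On zinc water it was measured at 2433, 1037 and 1199 CPM in SPF mice and at 10510, 4062, 4843 and 3218 CPM in germ-free mice (log2 fold change 1.86 ± 0.36 SE, adjusted p 0.00606 in edgeR). Every germ-free library lay above every other library. The Milli-Q call held without any single library, and the zinc water call was lost without SPF zinc library 2 (adjusted p 0.0659 in edgeR) and with only the compared groups in the fit.

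Counts assigned to Lars2 moved with another gene and with 18S ribosomal RNA. The Ensembl canonical transcript of Lars2 (3934 bases, gene at chr9:123195952-123291731, plus strand) shares 75 bases, positions 3315 to 3389, at 98.7% identity with Gm15564, a lncRNA on chromosome 16. Within this stretch 55 bases in a row are the same, and 30 of them are printed because reads from either transcript would carry them.
Lars2 and Gm15564: aagcgttggattgttcacccactaataggg
The lncRNA gene Gm73646 and the unclassified gene AA474408, both on chromosome 7, each share 97 bases with Lars2 at 94.8% identity. Across the 21 libraries there were 7.31 to 9.07 Lars2 counts for each Gm15564 count, with a median of 8.13, while Lars2 counts themselves ranged from 13252 to 57243. Counts of Rn18s-rs5, which holds 18S ribosomal RNA, took 1.44 to 2.51% of counts in SPF Milli-Q libraries and 4.28 to 6.57% in germ-free Milli-Q libraries, and Rn18s-rs5 rose on the log2 scale by 2.37 ± 0.47 (SE, adjusted p 0.00101 by edgeR) and, on zinc water, by 1.75 ± 0.44 (SE, adjusted p 0.0221). The mitochondrial ribosomal RNA genes mt-Rnr1 (0.88 ± 0.44, SE) and mt-Rnr2 (0.47 ± 0.38, SE) were not called on Milli-Q water. There were 38.5 to 82.7 Lars2 counts per 1000 counts of Rn18s-rs5. With the log2 percent of Rn18s-rs5 counts as a term, an alternative chosen after seeing the data, the Lars2 change was 1.68 (adjusted p 0.000444 in edgeR) on Milli-Q water and 0.95 (adjusted p 0.0384 in edgeR) on zinc water. The part of ribosomal RNA in the Lars2 counts was not tested, so these values are of counts assigned to Lars2.

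**Figure D4:**
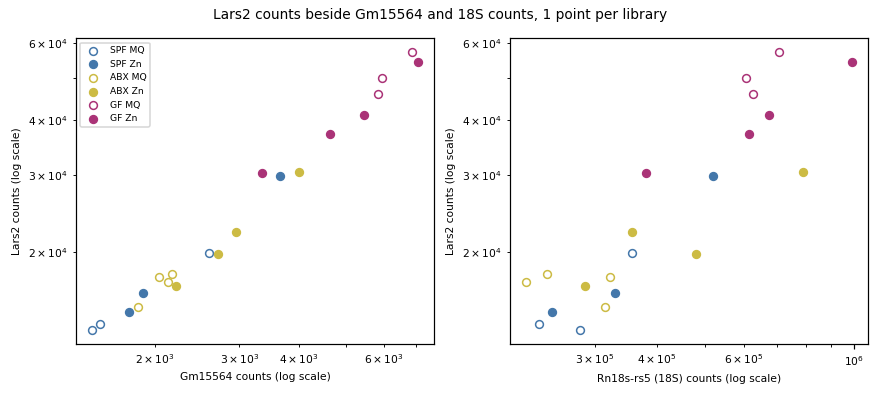
Counts assigned to Lars2 against those of Gm15564 (left) and Rn18s-rs5 (right) in each of the 21 libraries, on log axes, with a color for each microbiome context and filled points for zinc water. The points run along a line in the left panel, with 7.31 to 9.07 Lars2 counts per Gm15564 count, and scatter more widely in the right panel.

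Zinc water after antibiotics went with higher cytosolic synthetase levels. Against antibiotics-treated mice on Milli-Q water 10 of 19 cytosolic genes rose and none fell in edgeR's quasi-likelihood test, where 10.2% of all genes were called higher. Their median log2 fold change was 0.35 beside 0.01 for all genes. The largest rises were those of Nars1, Iars1, Mars1 and Gars1, followed by Aars1, Eprs1, Tars1, Hars1, Rars1 and Farsb (0.33 to 0.60 over the 10 genes). Nars1, the asparagine enzyme, was measured at 121, 112, 109 and 110 CPM on Milli-Q water and at 170, 164, 200 and 150 CPM on zinc water (log2 fold change 0.60 ± 0.12 SE, adjusted p 0.00222 in edgeR). All 4 zinc libraries lay above all 4 Milli-Q libraries.

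Iars1, which charges isoleucine, changed by 0.59 ± 0.15 (SE, adjusted p 0.00798 by edgeR), with means of 60.3 ± 7.52 and 90.9 ± 14.9 CPM (SD, n = 4 each), although it was not called in germ-free mice. Mars1, for methionine, changed by 0.56 ± 0.14 (SE, adjusted p 0.00812 in edgeR) and Gars1 by 0.56 ± 0.11 (SE, adjusted p 0.00279 in edgeR). Kars1 was not called (0.13 ± 0.12, SE). The zinc libraries lay above the Milli-Q libraries in 8 cytosolic genes, against 13.9% of all genes, and below them in Qars1 and Vars1, against 13.6%. The calls of Aars1, Eprs1, Gars1, Hars1, Iars1, Mars1 and Nars1 held without any single library. Farsb was lost without antibiotics Milli-Q libraries 2, 3 or 4 or antibiotics zinc libraries 2 or 3 (adjusted p up to 0.107 by edgeR), Rars1 without antibiotics Milli-Q libraries 3 or 4 or any antibiotics zinc library (up to 0.111), and Tars1 without antibiotics Milli-Q library 3 or antibiotics zinc libraries 1 or 3 (up to 0.0582). With library totals none of the 19 was called, and the median of the cytosolic genes was 0.18 beside -0.15 for all genes.

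All 3 scaffold genes of the multisynthetase complex rose with zinc after antibiotics, Eef1e1 by 0.90 ± 0.17 (SE, adjusted p 0.00188), Aimp2 by 0.48 ± 0.16 (adjusted p 0.0325) and Aimp1 by 0.42 ± 0.14 (adjusted p 0.0386 in edgeR's quasi-likelihood test). In the Atf4 and amino acid response list 3 of 19 genes rose, and they make serine, asparagine or one-carbon units. Psat1 changed by 1.39 ± 0.23 (SE, adjusted p 0.00128 in edgeR), Asns by 0.70 ± 0.14 (adjusted p 0.00268) and Mthfd2 by 0.58 ± 0.13 (adjusted p 0.00555). Atf4 was not called (-0.18 ± 0.14, SE, adjusted p 0.365 in edgeR), nor were Trib3 or Chac1. Of 3 ribosomal RNA genes, the mitochondrial mt-Rnr1 (1.32 ± 0.38 SE, adjusted p 0.0182 by edgeR) and mt-Rnr2 (1.16 ± 0.33 SE, adjusted p 0.0184) rose, and Rn18s-rs5 was not called (1.07 ± 0.39 SE, adjusted p 0.0506). Of 11 enterocyte markers 1 was called higher, and of 10 stem and cycling markers 3 were higher and 2 lower. The part of these in the synthetase values was not tested.

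Of the mitochondrial synthetase genes 2 of 16 were called higher and 1 lower in this comparison. These counts were not above what the shares of all genes, 10.2 and 11.5%, would give by much, and the class median was 0.03 beside 0.01 for all genes. Yars2 was measured at 17.2, 12.5, 14.1 and 15.4 CPM on Milli-Q water and at 22.7, 19.1, 18.4 and 26.4 CPM on zinc water (log2 fold change 0.55 ± 0.15 SE, adjusted p 0.0164 in edgeR's quasi-likelihood test). Iars2 changed by 0.31 ± 0.11 (SE, adjusted p 0.0479 in edgeR), and Aars2, the mitochondrial alanine enzyme, by -0.50 ± 0.16 (SE, adjusted p 0.0269 in edgeR). The zinc libraries of Yars2 all lay above the Milli-Q libraries, and those of Aars2 all lay below. The Yars2 call was lost without antibiotics Milli-Q library 2 or antibiotics zinc library 4 (adjusted p up to 0.073), and the calls of Iars2 and Aars2 were each lost without 6 of 8 libraries (adjusted p up to 0.162 and 0.0771), namely antibiotics Milli-Q libraries 1 to 3 with antibiotics zinc libraries 1, 2 and 4 for Iars2, or 2, 3 and 4 for Aars2. The count of 3 was thus 0 without antibiotics Milli-Q library 2 or antibiotics zinc library 4. Gfm1, a mitochondrial elongation factor, changed by 0.60 ± 0.13 (SE, adjusted p 0.00331 in edgeR).

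In germ-free mice the zinc libraries lay lower. In this comparison 3 of 19 cytosolic genes fell and none rose, where 5.47% of all genes were called lower, and 18 of 19 log2 fold changes were below 0 with a median of -0.29 beside -0.02 for all genes. Cars1 stood at 30.02, 21.8, 25.4 and 50.9 CPM in the germ-free zinc libraries against 69.2 to 73.9 CPM on Milli-Q water (log2 fold change -1.15 ± 0.21 SE, adjusted p 0.00923 in edgeR's quasi-likelihood test). The zinc library nearest to the Milli-Q libraries was library 4. Aars1 stood at 94.1, 88.1, 77.2 and 87.7 CPM on zinc water against 118 to 132 CPM (log2 fold change -0.52 ± 0.14 SE, adjusted p 0.0252 in edgeR). Vars1 changed by -0.52 ± 0.16 (SE, adjusted p 0.0434 in edgeR), but its libraries overlapped. Gars1 (-0.29 ± 0.12, SE) and Kars1 (-0.39 ± 0.13, SE) were not called (adjusted p 0.125 and 0.0561 in edgeR). In 7 cytosolic genes every zinc library lay below every Milli-Q library, against 8.78% of all genes.

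These counts rested on single libraries and on the fit, since with only the compared groups 0 cytosolic and 0 mitochondrial genes were called and with library totals 1 and 0. Of 11 enterocyte markers 2 were called higher (median 0.81), with the highest summed level, 1976 CPM, in germ-free zinc library 4, and their part was not tested. Without germ-free zinc library 4 or germ-free Milli-Q library 1, 7 cytosolic genes were called lower. Without germ-free Milli-Q library 2 none was called, and without germ-free Milli-Q library 3 or germ-free zinc library 2 or 3 only 1 was. The Cars1 call was lost without germ-free Milli-Q library 2 alone (adjusted p 0.0678 in edgeR), that of Aars1 without library 2 or 3 of either group (adjusted p up to 0.114), and that of Vars1 without those or germ-free zinc library 1 (adjusted p up to 0.262). Among mitochondrial genes 1 of 16 was called, Mars2, which was higher by 0.57 ± 0.19 (SE, adjusted p 0.0489 in edgeR) beside 5.89% of all genes called higher, and it was lost without any one of those 5 libraries (adjusted p up to 0.240). Mars2 stood at 11.3, 7.99 and 9.10 CPM on Milli-Q water and at 13.2, 17.1, 14.8 and 11.3 CPM on zinc water, where the ranges met. Without germ-free zinc library 4 there were 6 mitochondrial calls. Atf4 had a log2 fold change of -0.67 ± 0.15 here (SE, adjusted p 0.0129 by edgeR), from 353 to 386 CPM on Milli-Q water to 218, 221, 189 and 294 CPM on zinc water, and Nupr1 (-1.27 ± 0.21), Shmt2 (-0.57 ± 0.17) and Mthfd2 (-0.45 ± 0.14, SE), the last 2 of mitochondrial one-carbon metabolism, fell with it, as 4 of 19 genes of that list. Asns, Trib3 and Chac1 were not called.

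The cytosolic medians thus had opposite signs in these contexts, and the difference in the zinc effect was tested by an interaction term. Germ-free minus antibiotics, 2 of 35 members were called, where 0.207% of all genes were. The zinc effect on Aars1 was lower in germ-free mice by a log2 difference of -1.06 ± 0.20 (SE, adjusted p 0.0233 in edgeR's quasi-likelihood test) and that on Gars1 by -0.84 ± 0.17 (SE, adjusted p 0.0336 in edgeR). The difference was below 0 in 18 of 19 cytosolic genes, with a median of -0.63, and in 11 of 16 mitochondrial genes, with a median of -0.12. At an unadjusted p under 0.05 there were 14 cytosolic and 0 mitochondrial genes, beside 16.4% of all genes. The largest difference not called was that of Cars1 (-1.22 ± 0.28 SE, adjusted p 0.0568 in edgeR). Both calls were lost without antibiotics Milli-Q library 3 or 4, antibiotics zinc library 1 or 3, libraries 2 or 3 of the germ-free Milli-Q or germ-free zinc groups (adjusted p up to 0.102 for Aars1 and 0.114 for Gars1), and that of Gars1 also without antibiotics Milli-Q library 2 or with the replicate number as a block, while 9 members were called without germ-free Milli-Q library 1 and 7 without germ-free zinc library 4. Neither gene was called with library totals or with only the compared groups in the fit. Of the Atf4 list, Atf4 was not called (-0.49 ± 0.21 SE, adjusted p 0.246 by edgeR) and Mthfd2 was (-1.03 ± 0.20 SE, adjusted p 0.0295 in edgeR). The zinc effect in SPF mice was called different from that after antibiotics or in germ-free mice in 0 of 35 members. In both cases 0% of all genes tested were called, so the 0 is not particular to the members. At an unadjusted p under 0.05 in edgeR there were 7 and 10 members, beside 18.5 and 13.3% of all genes. DESeq2 called 0 and 1 members and limma-voom 2 and 3.

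Zinc water in SPF mice and antibiotics on Milli-Q water each gave 0 calls among the 35 members, beside 0.138 and 0.199% of all genes called in either direction. At an unadjusted p under 0.05 edgeR's test had 5 members for zinc in SPF mice and 2 for antibiotics, beside 5.09 and 8.13% of all genes, and DESeq2 and limma-voom called 0 members in either. Gars1 (0.08 ± 0.13 and -0.02 ± 0.12, SE), Kars1 (-0.02 ± 0.14 and 0.16 ± 0.13, SE) and Atf4 (0.01 ± 0.16 and 0.34 ± 0.15, SE) were among the genes not called, for zinc and antibiotics in that order. For zinc in SPF mice the cytosolic changes ran from -0.10 to 0.35, the highest being that of Lars1 (0.35 ± 0.14 SE, adjusted p 0.787 in edgeR), and without Lars2 14 of 15 mitochondrial changes were below 0, down to -0.59 for Pars2. Leaving out SPF zinc library 1, with its Xist counts, also gave 0 calls. Enterocyte markers were higher in SPF mice on zinc water, since their summed level was 1396 ± 382 against 553 ± 162 CPM (SD, n = 3 each) and 10 of 11 lay above without overlap, where 6.7% of all genes did, and 1 was called. Their part in the synthetase values was not tested. For antibiotics on Milli-Q water the cytosolic median was 0.17, and all 7 complex synthetases had values above 0 (median 0.21), of which Lars1, Mars1 and Qars1 did not overlap between groups, where 4.45% of all genes lay higher without overlap.

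On zinc water, antibiotics-treated mice had 6 of 19 cytosolic genes higher than SPF mice (Gars1, Hars1, Iars1, Mars1, Rars1 and Yars1, log2 fold changes 0.45 to 0.68), beside 4.76% of all genes, and all 19 values were above 0 with a median of 0.33. Among mitochondrial genes Yars2 (0.74 ± 0.17 SE, adjusted p 0.0118), Rars2 (0.66 ± 0.16 SE, adjusted p 0.0167) and Iars2 (0.40 ± 0.12 SE, adjusted p 0.0418 in edgeR's quasi-likelihood test) were higher. Yars2 was measured at 14.03, 12.9 and 12.0 CPM in SPF zinc libraries and at 18.4 to 26.4 CPM after antibiotics, without overlap. Hars1 (0.58 ± 0.12 SE, adjusted p 0.00527), Yars1 (0.56 ± 0.17 SE, adjusted p 0.0388) and Iars1 (0.54 ± 0.16 SE, adjusted p 0.0361 by edgeR) followed Mars1 among the cytosolic genes, and Kars1 (0.30 ± 0.13, SE) and Atf4 (0.14 ± 0.15, SE) were not called. In 9 cytosolic and 8 mitochondrial genes the antibiotics libraries lay higher without overlap, beside 14.5% of all genes. Mars1 (0.68 ± 0.15 SE, adjusted p 0.0103 by edgeR) had the largest cytosolic difference, at 50.3, 47.7 and 39.9 CPM against 86.6, 57.9, 86.4 and 62.8 CPM. The calls rested on few libraries. There were 3 cytosolic calls without antibiotics zinc library 1 or 3, 2 without SPF zinc library 2 and 1 without SPF zinc library 3. Without SPF zinc library 2 there were 0 mitochondrial calls. Without SPF zinc library 3 there was 1, and it was none of Yars2, Rars2 and Iars2. In 9 of 11 enterocyte markers the antibiotics zinc libraries were called lower, beside 4.21% of all genes (summed level 505 ± 76.0 CPM, SD, n = 4), and in 4 of 8 goblet markers higher. All 10 Paneth markers had log2 fold changes below 0, and 1 was called lower. The part of these cells was not tested.

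Germ-free mice on zinc water had 3 of 19 cytosolic genes higher than SPF mice on zinc water, beside 3.47% of all genes. They were Sars1, the serine enzyme (0.55 ± 0.14 SE, adjusted p 0.0268), Rars1 (0.49 ± 0.13 SE, adjusted p 0.0338) and Gars1 (0.46 ± 0.12 SE, adjusted p 0.0338 in edgeR's quasi-likelihood test). Sars1 was measured at 72.9, 67.0 and 64.4 CPM in SPF mice and at 97.6, 101, 89.0 and 111 CPM in germ-free mice, and the groups did not overlap, as in 10 cytosolic genes and 10.7% of all genes. Kars1 was not called (0.31 ± 0.13 SE, adjusted p 0.149 in edgeR). Cars1 and Aars1, the genes with the largest differences on Milli-Q water, stood at 0.17 ± 0.21 and 0.32 ± 0.14 (SE) and were not called. The cytosolic median was 0.31 with TMM factors and -0.31 with library totals, around a median of all genes of -0.61 in the latter, in which Gars1, Rars1 and Sars1 lay below 0. None of the 3 genes was called without germ-free zinc library 2 or SPF zinc library 2 or 3, and 1 was without germ-free zinc library 1. With only the compared groups in the fit, 0 members were called. Of 10 Paneth markers 5 were higher and 1 lower, of 8 goblet markers 3 were higher, of 8 enteroendocrine markers 2 were higher and 1 lower, and of 5 tuft markers 2 were lower, and their part was not tested. Lars2 was the 1 mitochondrial gene called, and there were 4 calls without germ-free zinc library 4 and 0 without SPF zinc library 2. In the Atf4 list 5 of 19 genes were higher, Trib3 by 2.05 ± 0.48 (SE), Slc7a5, which exchanges large neutral amino acids, by 0.72 ± 0.16, its partner chain Slc3a2 by 0.64 ± 0.18 and Asns by 0.65 ± 0.15, and Mthfd2 was the fifth. Atf4 was not called (0.28 ± 0.15, SE). The elongation factors Eef1g (0.63 ± 0.13, SE) and Eef2 (0.60 ± 0.13, SE) were higher.

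Averaged over the 3 contexts, zinc went with 3 of 19 cytosolic genes higher, Iars1 (0.35 ± 0.09 SE, adjusted p 0.0106), Nars1 (0.27 ± 0.07 SE, adjusted p 0.0127) and Eprs1 (0.24 ± 0.07 SE, adjusted p 0.0194 in edgeR's quasi-likelihood test), beside 10.7% of all genes. Eprs1 joins glutamate and proline enzymes in a single protein. These 3 calls held without any single library, but the average does not describe each context. In germ-free mice the means on Milli-Q and zinc water were 156 and 153 CPM for Nars1 and 88.6 and 88.1 CPM for Eprs1. Those of Iars1 were 57.5 and 72.9 CPM. Among the 16 mitochondrial genes Cars2 (-0.40 ± 0.11 SE, adjusted p 0.0155) and Aars2 (-0.36 ± 0.10 SE, adjusted p 0.0157 in edgeR) fell, beside 11.2% of all genes called lower. Mars2 rose (0.30 ± 0.10 SE, adjusted p 0.0386 in edgeR), beside 10.7% of all genes called higher. In both classes the counts were near the shares of all genes, so they are not particular to the members. The calls of Cars2 and Aars2 held without any single library, and that of Mars2 was lost without 10 of 21 libraries (antibiotics Milli-Q 1 and 2, antibiotics zinc 4, germ-free Milli-Q 2 and 3, germ-free zinc 2 and 3, SPF Milli-Q 1 and 2, and SPF zinc 3, adjusted p up to 0.108). Without germ-free zinc library 4 there were 6 cytosolic and 9 mitochondrial calls, and with library totals 0 cytosolic genes were called. Of 11 enterocyte markers 6 were higher (median 1.22), as were all 3 ribosomal RNA genes (0.69 to 1.09), and their part was not tested. Gars1 (0.12 ± 0.07, SE) and Kars1 (-0.09 ± 0.08, SE) were not called, and Atf4 was lower (-0.28 ± 0.09 SE, adjusted p 0.0259 by edgeR).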

How the data were processed

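The deposited values were raw counts for each Ensembl gene in 21 libraries, which the authors had not normalized. The submitters' processing notes name FastQC 0.12.0, STAR 2.7.0a, DESeq2 and the mm39 build. How reads were counted, whether by strand, and what was done with reads that map to several genes were not given in the sources used here, so overlapping genes and shared sequences are uncertain. Of 55414 identifiers 54749 matched GENCODE M39 of GRCm39, and those not matched held 0.0164% of counts.

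A quasi-likelihood fit in edgeR 4.0.16 (with limma 3.58.1 under R 4.3.3) was made of all 21 libraries with 6 group coefficients, TMM factors and filterByExpr, with Benjamini-Hochberg adjustment over 13070 genes at 0.05. Groups came from the labels. CPM values are TMM-scaled, and TPM used the longest transcript. The shared stretch of Lars2 was found with blastn 2.17.0. Named genes were, in each comparison, up to 4 called members with the largest rise and fall in each class, Gars1, Kars1 and Atf4, and up to 4 called genes of each other list. Other genes named, and the Lars2 checks, were chosen after their values were seen. The members, lists and rules were chosen with earlier results of these data known. Alternatives replaced the scaling (DESeq2-type size factors or library totals), the tool (DESeq2 1.42.0 or quality-weighted limma-voom), the filter (none, or 10 counts in 10 libraries) and the libraries fitted (those of the compared groups, or all but 1 in turn), or added the replicate number as a blocking term. Total counts per library, 9888174 to 16896714, set the precision of low genes such as Pars2. Figures were drawn with matplotlib 3.10.9.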

Additional observations from a re-analysis of the deposited data

Results flagged for a closer look

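The zinc effect differed between germ-free and antibiotics-treated mice in Aars1 (log2 difference -1.06 ± 0.20 SE, adjusted p 0.0233) and Gars1 (-0.84 ± 0.17 SE, adjusted p 0.0336) by the interaction term of edgeR's quasi-likelihood fit. The calls were lost in 8 and 9 of 15 fits without a library, and both with library totals and with only the compared groups. A further 5 values lay far from the rest of a group of 4 libraries, among 111 such groups looked at, of which chance would give about 1 in 20. Aars2 stood at 11.4 CPM in germ-free zinc replicate 4 against 7.54 to 7.75 CPM in the other 3 libraries. Cars2 stood at 17.96 CPM in the same library against 9.30 to 10.7 CPM. Sars2 stood at 16.1 CPM in antibiotics Milli-Q replicate 2 against 14.4 to 14.7 CPM. Wars2 stood at 7.15 CPM in antibiotics zinc replicate 2 against 7.77 to 7.82 CPM. The mitochondrial genes without Lars2 summed to 321 CPM in antibiotics Milli-Q replicate 1 against 291 to 293 CPM.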

How the results depend on the processing

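Of 19 counts of called members, DESeq2-type size factors moved none by over 1.5 times. With library totals the cytosolic count was 0 for zinc after antibiotics, 1 for zinc in germ-free mice, 0 for zinc averaged, 8 (all lower) for germ-free on Milli-Q water, 3 for antibiotics on zinc water and 6 (all lower) for germ-free on zinc water. The mitochondrial count was 1, 0, 16 and 12 for zinc after antibiotics, zinc in germ-free mice and the germ-free comparisons on Milli-Q and zinc water, and that of the germ-free minus antibiotics difference was 0. In that scaling the log2 fold change on Milli-Q water turned negative for Farsb (-0.57), Nars1 (-0.51), Tars1 (-0.47), Hars1 (-0.32), Kars1 (-0.28), Mars1 (-0.26), Gars1 (-0.15), Rars1 (-0.11), Lars1 (-0.088), Sars1 (-0.057), Wars1 (-0.046) and Yars1 (-0.020), and on zinc water for Gars1 (-0.17), Rars1 (-0.12) and Sars1 (-0.059), while the median of all genes was -0.99 and -0.61.

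DESeq2 gave cytosolic counts of 6 for zinc in germ-free mice and 5 for zinc averaged, mitochondrial counts of 6 for zinc averaged, 5 for antibiotics on zinc water and 2 for germ-free on zinc water, and 1 and 9 for the zinc effect in germ-free minus SPF and minus antibiotics mice. Limma-voom gave cytosolic counts of 11, 6, 12 and 6 for zinc in germ-free mice, zinc averaged, antibiotics and germ-free on zinc water, mitochondrial counts of 7, 5, 10, 6 and 4 for zinc after antibiotics, zinc in germ-free mice, zinc averaged, antibiotics and germ-free on zinc water, and 2, 3 and 12 for the differences antibiotics minus SPF, germ-free minus SPF and germ-free minus antibiotics. With no filter 1 mitochondrial gene was called for zinc in SPF mice and 5 for zinc averaged, 1 cytosolic gene for germ-free on zinc water, and 2 and 5 members for the germ-free minus SPF and minus antibiotics differences. The stricter filter gave 5 cytosolic and 0 mitochondrial genes for zinc in germ-free mice. Only the groups compared gave 0 cytosolic and 0 mitochondrial genes for zinc in germ-free mice and for germ-free on zinc water, 7, 2 and 5 mitochondrial genes for zinc after antibiotics, germ-free on Milli-Q water and antibiotics on zinc water, and 0 members for germ-free minus antibiotics. The causes were not tested.

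By replicate label, libraries of the same number in different groups showed little correlation, since 7 of 48 such pairs correlated above 0.1 (median 0.017). In the germ-free Milli-Q group the column numbers of the deposited count table differ from these labels. Pairing by the column numbers was not tested. With the replicate number as a block, 0 mitochondrial genes were called for zinc in germ-free mice and 1 member, Aars1, for germ-free minus antibiotics, with Gars1 lost, and the other 17 counts stayed within 1.5 times.

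Without 1 library at a time, cytosolic counts ranged from 7 to 10 for zinc after antibiotics, 0 to 7 for zinc in germ-free mice, 3 to 6 for zinc averaged, 11 to 15 for germ-free on Milli-Q water, 1 to 6 for antibiotics on zinc water and 0 to 3 for germ-free on zinc water. Mitochondrial counts ranged over 0 to 4, 0 to 6, 2 to 9, 1 to 3, 0 to 3 and 0 to 4 in the same order. The counts ranged over 0 to 2 and 0 to 9 for the germ-free minus SPF and minus antibiotics differences. Depth limits Pars2 most, with 12 counts in its lowest library.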
